A study of Mus musculus with 11 samples.

Results

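Fatty acid elongases and desaturases were followed in mouse livers in which YAP had been switched on for 3 or 7 days. The genes were taken by name: the elongases Elovl1, Elovl2, Elovl3, Elovl5, Elovl6 and Elovl7, the polyunsaturated fatty acid desaturases Fads1 and Fads2, and the stearoyl-CoA desaturases Scd1 and Scd2. These are 10 of the 20893 genes of the deposited table, and all 10 passed the filter on low values, as did 14244 genes in all. RNA was purified from homogenized livers of C57BL/6 mice and sequenced in 11 libraries. Control livers (n = 4) carried the genotype ROSA26-rtTA-IRES-EGFP; WT and came from mice on doxycycline food for 7 days. Induced livers carried ROSA26-rtTA-IRES-EGFP; tetYAP and came from mice fed doxycycline for 3 days (n = 4) or for 7 days (n = 3). Control and 7-day mice thus shared the duration of doxycycline, and the 3-day mice did not. According to the study's methods the mice were bred with Alb-CRE mice, so that a point-mutated, constitutively active YAP, inserted at the Col1A1 locus, is induced in cells with a history of albumin promoter activity, which in the liver are mainly hepatocytes. The labels do not name Alb-CRE, and they give no age.

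Mammals build long fatty acids in the endoplasmic reticulum by a cycle of condensation, reduction, dehydration and reduction that adds a pair of carbons per turn. An ELOVL protein performs the condensation and sets which chains are lengthened, while the other enzymes of the cycle are shared. Desaturases add double bonds with electrons passed on by cytochrome b5: stearoyl-CoA desaturases turn saturated into monounsaturated fatty acids, and FADS proteins, alternating with Elovl5 and Elovl2, turn the essential fatty acids of the diet into arachidonate and docosahexaenoate. The liver is a main site of both routes, and many of these genes are classical targets of the lipogenic factor SREBP-1c and of PPAR alpha.

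The members lie on chromosomes 3, 4, 9, 13 and 19 of mm9, the build of the deposited table. Scd2 (chr19:44368166-44381354, plus strand) and Scd1 (chr19:44468941-44482199, minus strand) are neighbours with 87586 bases between them. Fads2 (chr19:10138654-10175993, minus strand) and Fads1 (chr19:10257378-10271360, plus strand) are separated by 81384 bases. Elovl3 (chr19:46206387-46210184, plus strand) lies on the same chromosome. Elovl2 (chr13:41277864-41315774, minus strand) and Elovl7 (chr13:109004598-109077299, plus strand) are far apart on chromosome 13. Elovl1 is at chr4:118100698-118105558, Elovl5 at chr9:77765171-77832326 and Elovl6 at chr3:129235304-129341413, all on the plus strand. All 10 are protein-coding genes, and the values cover their exons.

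Promoter sequences from RefSeq (assembly GRCm38.p6) were matched by symbol for 6 of the 10 members: Elovl1, Elovl2, Elovl5, Elovl6, Elovl7 and Fads2. The 250 bases before the transcription start are shown for the 3 of these that fell after 7 days of YAP and the 2 that rose, so that genes that moved in opposite directions can be read side by side. Each sequence runs from 5′ to 3′ in the direction of transcription and ends at the base before the start. Capitals mark CCAAT (the NF-Y box) and GGGCGG (the GC box), as these letters or as their reverse complement.
Fads2 (chr19:10101504-10101753, minus strand): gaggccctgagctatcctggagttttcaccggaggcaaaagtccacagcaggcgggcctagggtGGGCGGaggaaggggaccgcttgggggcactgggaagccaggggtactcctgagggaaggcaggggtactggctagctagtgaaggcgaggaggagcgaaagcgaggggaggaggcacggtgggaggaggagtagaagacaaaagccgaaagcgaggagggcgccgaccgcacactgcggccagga
Elovl5 (chr9:77917115-77917364, plus strand): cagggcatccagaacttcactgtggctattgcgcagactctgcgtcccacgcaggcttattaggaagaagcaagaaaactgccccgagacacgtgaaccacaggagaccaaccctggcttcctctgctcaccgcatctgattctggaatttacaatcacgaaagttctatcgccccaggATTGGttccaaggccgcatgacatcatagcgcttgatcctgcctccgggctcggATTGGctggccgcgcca
Elovl2 (chr13:41220404-41220653, minus strand): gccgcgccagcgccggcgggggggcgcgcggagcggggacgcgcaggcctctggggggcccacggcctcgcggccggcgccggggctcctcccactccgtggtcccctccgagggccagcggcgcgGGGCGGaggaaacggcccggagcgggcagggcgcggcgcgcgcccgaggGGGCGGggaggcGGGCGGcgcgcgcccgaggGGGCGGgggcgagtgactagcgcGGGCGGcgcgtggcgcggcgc
Elovl1 (chr4:118427843-118428092, plus strand): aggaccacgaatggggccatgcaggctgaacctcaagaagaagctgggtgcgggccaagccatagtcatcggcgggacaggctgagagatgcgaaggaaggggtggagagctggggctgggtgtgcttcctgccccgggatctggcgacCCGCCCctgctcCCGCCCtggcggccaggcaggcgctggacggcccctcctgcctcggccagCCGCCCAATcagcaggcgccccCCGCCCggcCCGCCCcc
Elovl7 (chr13:108214154-108214403, plus strand): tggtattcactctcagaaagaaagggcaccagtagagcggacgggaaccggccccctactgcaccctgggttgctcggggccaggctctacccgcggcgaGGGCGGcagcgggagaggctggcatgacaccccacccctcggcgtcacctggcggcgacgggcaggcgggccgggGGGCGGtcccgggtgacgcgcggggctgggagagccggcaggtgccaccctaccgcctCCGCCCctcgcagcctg
Elovl2 and Elovl1 have a second annotated start, and the start shown is the upstream one. Elovl5 holds 2 CCAAT matches and no GC box in this window. Elovl2 holds 5 GC boxes, Elovl7 holds 3 and Fads2 holds 1, with no CCAAT in any of them. Elovl1 holds 5 GC boxes and 1 CCAAT, and the CCAAT shares 2 letters with a GC box. Over all 32851 mouse promoter windows of this length, 33.8% hold CCAAT and 32.7% hold GGGCGG on either strand. The letters CATTCC, read by the TEAD partners of YAP, stand in 12.6% of all windows and in 0 of the 8 windows of the 6 members. The STAT letters TTCNNNGAA stand in 7.02% of all windows and also in 0 of these 8. None of the 4 motifs searched stood in all the promoters shown of one direction and in none of the other, and the absence of letters here says nothing about the factor.

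The deposited values are eRPKM, a read count over the exons of each gene, divided by their length and scaled to the library. For some abundant genes, Scd1 among them, reads did not keep up with the depth of the library, so that their eRPKM ran lower in deeper controls (values below). Reads on genes numbered 1251396 to 5495697 in control libraries, 2660233 to 3681416 in 3-day libraries and 5312486 to 5941357 in 7-day libraries, so the 7-day libraries were deeper than 3 of the 4 controls. Xist and Ddx3y levels gave 2 female and 2 male livers among controls, the same among 3-day livers, and 3 females at 7 days. The targets of YAP that serve as a check of induction, Cyr61 and Ctgf, were higher in every induced liver than in every control: Cyr61 averaged 9.43 ± 3.63 eRPKM (SD, n = 4) in controls, 39.0 ± 13.8 (n = 4) at 3 days and 91.0 ± 0.409 (n = 3) at 7 days. At 3 days limma called neither Cyr61 (log2 fold change 1.99, adjusted p = 0.0117) nor Ctgf (1.41, adjusted p = 0.083). A 3-day change that was not called is therefore not shown to be absent. Yap1 stood at 13.9 to 21.1 eRPKM in controls, 15.3 to 19.3 after 3 days and 17.4 to 19.0 after 7 days, with no called change (0.03 at 7 days, adjusted p = 0.917). Whether reads of the transgene count towards this value was not tested. The hepatocyte markers Alb, Ttr, Apoa1, Cps1, Hnf4a and Asgr1 were detected in every liver. A gene was called when the Benjamini-Hochberg adjusted p of limma was under 0.01 and the log2 fold change was beyond 0.5 in either direction, the thresholds of the study.

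After 7 days of YAP the members split. Scd2, Elovl7 and Elovl1 rose, Fads2, Fads1, Elovl5, Elovl2, Scd1 and Elovl3 fell, and Elovl6 was not called. Thus 3 of 10 members rose, where 18.0% of the 14244 tested genes rose, and 6 of 10 fell, where 5.77% of tested genes fell. In 9 of 10 members the 7-day livers lay wholly above or wholly below the controls, which was also so for 50.0% of tested genes. The median log2 fold change of the 10 members was -1.30, against 0.26 over all tested genes. After 3 days 0 of 10 members were called, where 0.0421% of tested genes were called in either direction. Limma-voom on recovered reads also called 0 members, and it called only 1 rise among all tested genes. An unadjusted limma p under 0.05 was found for 4 members (Elovl1, Elovl2, Elovl5 and Fads2) and for 1718 of the 14244 tested genes. Only in Fads2 did the 3-day livers and the controls not overlap (1 of 10 members, against 5.64% of tested genes). Between 3 and 7 days the rise of 2 members stood against 14.0% of tested genes and the fall of 6 members against 5.31%, and 9 of 10 members did not overlap, against 45.1% of tested genes. Under median-ratio size factors or quantile normalization the median of all genes at 7 days moved from 0.26 to 0.02 or -0.08, and the rises among all calls from 75.7% to 60.3% or 50.5%, while 3 members rose and 6 fell under both. In whole liver RNA, less RNA of a gene per cell and fewer cells that express it cannot be told apart.

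**Figure D1:**
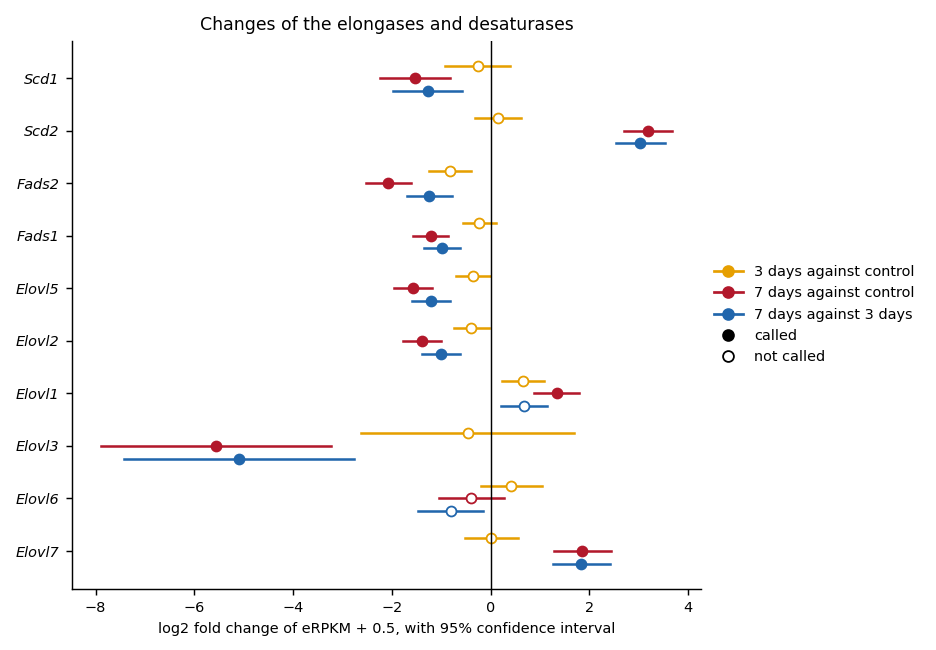
Log2 fold change of each elongase and desaturase with its 95% confidence interval, on the log2(eRPKM + 0.5) scale, for 3 days against control (amber), 7 days against control (red) and 7 days against 3 days (blue); filled circles passed the thresholds and open circles did not. At 7 days Scd2 (3.19), Elovl7 (1.86) and Elovl1 (1.34) lie to the right of 0 and 6 members lie to the left, while all 3-day circles are open.

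The stearoyl-CoA desaturases moved in opposite directions. Scd1, the main form of the adult liver, makes oleate and palmitoleate from stearate and palmitate, and Scd2 has the same activity and is best known from brain and from the liver before weaning. Scd2 stood at 5.07, 4.63, 4.51 and 2.70 eRPKM in control livers 1 to 4, at 4.34, 4.32, 4.64 and 5.32 in 3-day livers 1 to 4, and at 40.7, 34.0 and 52.4 in 7-day livers 1 to 3. The 7-day livers were all far above the other 8, which overlapped each other. The 7-day livers gave a log2 fold change of Scd2 of 3.19 against control (SE 0.23, adjusted p = 1.83e-06) and of 3.04 against 3 days (SE 0.23, adjusted p = 4.01e-06), the largest rise of the 10 members in each. At 3 days it was 0.15 (95% confidence interval -0.31 to 0.61). The means were 4.23 ± 1.04 (SD, n = 4), 4.65 ± 0.466 (n = 4) and 42.4 ± 9.27 (n = 3) eRPKM, a ratio of 10.02 between 7 days and control.

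Scd1 was the most abundant member in every group, at 350.3, 234.5, 497.2 and 715.8 eRPKM in controls, 420.2, 317.6, 338.4 and 312.9 at 3 days, and 173.9, 98.2 and 168.6 at 7 days. The 7-day livers were below all others, and the controls spread widely among themselves. The 7-day livers gave a log2 fold change of -1.54 against control (SE 0.33, adjusted p = 0.00268) and of -1.27 against 3 days (SE 0.33, adjusted p = 0.00966). The second call was lost in 18 of 27 alternatives, with adjusted p up to 0.0567. These values rest on a count that hardly grew with depth: between the shallowest and the deepest control, reads on genes rose 4.39-fold and reads on Scd1 1.44-fold, from 4463 to 6433. The same was seen for Alb (1.28-fold) and Apoa1 (1.32-fold), and in part for Elovl2 (3.07-fold) and Elovl5 (3.65-fold). Reads on Fads1 (4.26-fold), Fads2 (5.40-fold) and Elovl6 (5.34-fold) grew about as much as depth or more. Reads on the 3 members that rose at 7 days grew more than depth: Elovl1 6.67-fold, Scd2 7.53-fold and Elovl7 11-fold, the last from 2 to 22 reads. Their eRPKM thus ran higher in the deepest than in the shallowest control. With log2 depth as a covariate 3 members still rose at 7 days. Control liver 2, with 5495697 reads on genes, matched the 7-day livers in depth and held 6433 reads on Scd1, against 4646, 2912 and 4465 in these. With log2 depth as a covariate the log2 fold change at 7 days was -0.80 (adjusted p = 0.0122), without 7-day liver 2 it was -1.27 (adjusted p = 0.0192), in female livers alone -1.26 (adjusted p = 0.0254), and against the 2 deepest controls -1.01 (adjusted p = 0.0196). None of these 4 values against control passed the threshold of 0.01, and all 4 were below 0. Scd2 made up 0.376% to 1.93% of the summed eRPKM of Scd1 and Scd2 in controls, 1.02% to 1.67% after 3 days and 19.0% to 25.7% after 7 days. As for the sequences of the paralogs, 3.77% of the 60-base stretches of Scd1 and 2.73% of those of Scd2 also occur in another Scd gene. How many reads were assigned to the wrong paralog was not tested; Scd2 held 19 to 143 reads in controls, where Scd1 held 4463 to 6806, and 1137 to 1562 reads at 7 days, where Scd1 held 2912 to 4646.

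**Figure D2:**
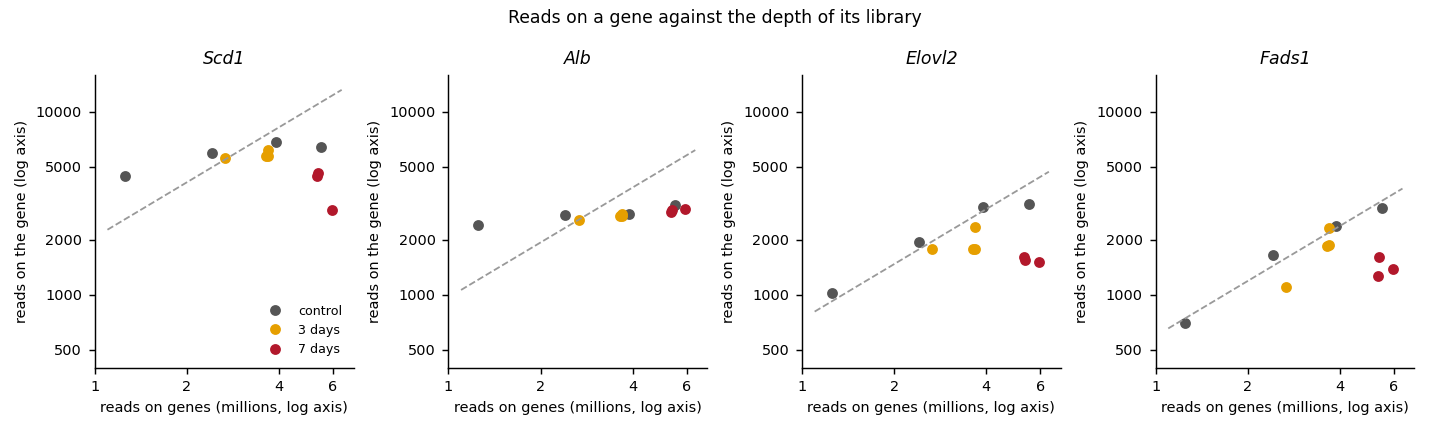
Reads on Scd1, Alb, Elovl2 and Fads1 (log axis) against all reads on genes of the library (log axis), 1 point per liver, with controls in grey, 3 days in amber and 7 days in red; the dashed line is proportional to depth through the mean of the controls on the log scale. Reads on Scd1 and Alb stay almost level across controls, reads on Elovl2 grow less than depth, and those on Fads1 follow the line while the 7-day livers lie below it.

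Fads2 fell the most of the polyunsaturated fatty acid genes. It encodes the entry desaturase of the route, which acts on linoleate and alpha-linolenate, and Fads1 encodes the desaturase that acts later to form arachidonate and eicosapentaenoate. Fads2 was at 75.9, 77.3, 98.4 and 63.0 eRPKM in controls, 30.7, 44.1, 59.5 and 44.7 at 3 days, and 18.9, 16.0 and 19.7 at 7 days. The 3 groups did not overlap, and the levels stepped down with time. At 3 days its log2 fold change of -0.83 (SE 0.20, adjusted p = 0.0979) did not pass the threshold. By 7 days it had reached -2.07 against control (SE 0.21, adjusted p = 1.75e-05) and -1.24 against 3 days (SE 0.21, adjusted p = 0.000783). The means were 78.6 ± 14.6 (SD, n = 4), 44.8 ± 11.8 (n = 4) and 18.2 ± 1.92 (n = 3) eRPKM.

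Fads1, next to it on chromosome 19, was at 149.8, 132.8, 167.4 and 137.2 eRPKM in controls, 101.2, 124.4, 153.8 and 124.4 at 3 days, and 73.6, 57.1 and 58.5 at 7 days. Controls and 3-day livers overlapped, and all 7-day livers were lower. The 3-day value of its log2 fold change was -0.23 (95% confidence interval -0.57 to 0.10). The 7-day value was -1.22 (SE 0.17, adjusted p = 0.000136). The ratio of Fads1 to Fads2 within a liver was 1.70 to 2.18 in controls, 2.59 to 3.29 after 3 days and 2.98 to 3.90 after 7 days, so every induced liver had a higher ratio than every control.

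Elovl5 and Elovl2, which lengthen the polyunsaturated products of the FADS enzymes, fell alongside them. Elovl5 was at 157.5, 146.2, 214.6 and 176.3 eRPKM in controls, 145.8, 120.1, 112.0 and 164.7 at 3 days, and 60.9, 52.6 and 59.6 at 7 days. Against control its log2 fold change was -0.36 (adjusted p = 0.411) after 3 days and -1.57 (SE 0.18, adjusted p = 3.44e-05) after 7 days. Elovl2, which acts on the longest polyunsaturated chains on the way to docosahexaenoate, was at 196.4, 144.4, 204.2 and 206.6 eRPKM in controls, 169.2, 123.5, 122.1 and 160.4 at 3 days, and 73.1, 63.8 and 76.4 at 7 days. For both genes the 7-day livers were below all others and the 3-day livers overlapped the controls. The log2 fold change of Elovl2 was -0.39 (adjusted p = 0.371) after 3 days and -1.38 (SE 0.18, adjusted p = 8.07e-05) after 7 days. From 3 to 7 days Elovl5 fell by 1.21 and Elovl2 by 0.999 on the log2 scale (adjusted p = 0.000262 and 0.00107). The 2 genes kept close to each other, with an Elovl2 to Elovl5 ratio of 0.951 to 1.25 in controls, 0.974 to 1.16 after 3 days and 1.201 to 1.28 after 7 days. The summed level of Elovl2, Elovl5, Fads1 and Fads2 was 500.7 to 684.6 eRPKM in controls, 412.1 to 494.1 after 3 days and 189.5 to 226.5 after 7 days.

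**Figure D3:**
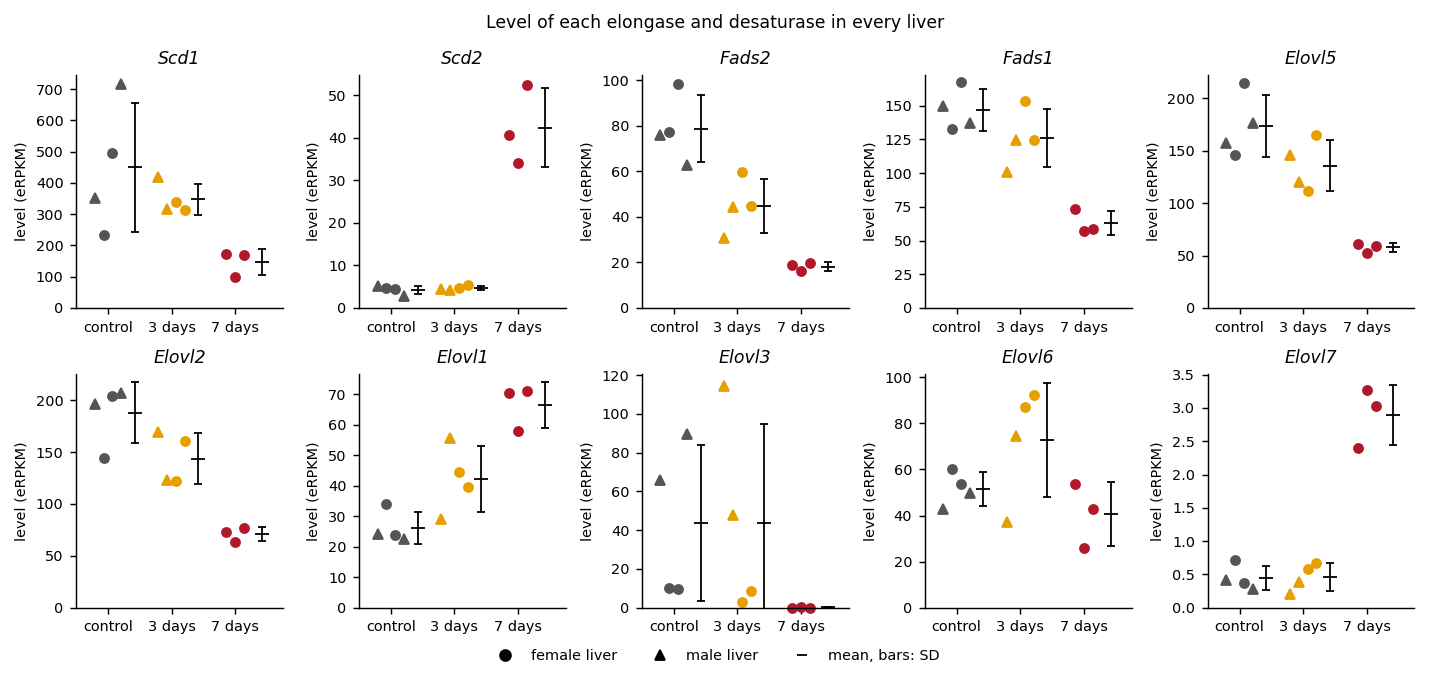
Level in eRPKM (linear axes from 0, scaled per gene) of each elongase and desaturase in every liver, with circles for female and triangles for male livers and, to the right of each group, the mean with bars of 1 SD (the lower bar of Elovl3 at 3 days ends at the axis). Scd2 and Elovl7 are raised only at 7 days (34.0 to 52.4 and 2.40 to 3.27 eRPKM), Fads2 steps down over the 3 groups, and Elovl3 separates by sex before it is lost at 7 days.

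The elongases of saturated and monounsaturated chains did not move together. Elovl1, a broadly expressed elongase of very long chains that feed ceramide synthesis, was at 24.2, 34.0, 23.9 and 22.4 eRPKM in controls, 29.3, 55.6, 44.6 and 39.4 at 3 days, and 70.3, 57.8 and 71.2 at 7 days. All but 1 of the 3-day livers were above every control, and all 7-day livers were above the other 8. The log2 fold change of Elovl1 against control was 0.66 after 3 days (SE 0.20, adjusted p = 0.185) and 1.34 after 7 days (SE 0.21, adjusted p = 0.000366). Between 3 and 7 days it was 0.68 (SE 0.21, adjusted p = 0.0255, not called). Elovl1 shares 53 exon bases (1.94% of its exons) with Cdc20 on the opposite strand, and the reads were mapped without strand. Cdc20, an activator of the anaphase-promoting complex, was at 0.603 to 4.55 eRPKM in controls, 2.12 to 20.6 after 3 days and 16.1 to 33.9 after 7 days; its part in the Elovl1 value was not tested.

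Elovl7, an elongase of saturated very long chains, was the lowest member in controls. It was at 0.412, 0.714, 0.371 and 0.285 eRPKM in controls (9, 22, 5 and 2 reads), 0.201, 0.394, 0.582 and 0.679 at 3 days (3, 8, 12 and 14 reads), and 2.40, 3.27 and 3.02 at 7 days (72, 109 and 90 reads). The 7-day livers were all above the rest, and controls and 3-day livers could not be separated at this depth. The log2 fold change at 7 days was 1.86 (SE 0.27, adjusted p = 0.000178), a value that the added 0.5 eRPKM holds down at so low a level. From 3 to 7 days it was 1.84 (SE 0.27, adjusted p = 0.000253).

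Elovl6, which lengthens palmitate to stearate and is a textbook lipogenic gene, showed no called change. It was at 42.7, 60.2, 53.6 and 49.6 eRPKM in controls, 37.1, 74.7, 87.0 and 92.3 at 3 days, and 53.6, 25.8 and 42.8 at 7 days. At 3 days 3 livers were above and 1 was below all controls, and at 7 days the groups overlapped. The log2 fold change was 0.42 (95% confidence interval -0.19 to 1.04, adjusted p = 0.578) at 3 days, -0.39 (-1.05 to 0.28, adjusted p = 0.345) at 7 days and -0.81 (-1.47 to -0.15, adjusted p = 0.0556) from 3 to 7 days. Without 3-day liver 1, the shallowest of its group, the last value was -1.10 (adjusted p = 0.00532) and passed the threshold.

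Elovl3, known from brown fat and skin and, in mouse liver, for higher levels in males, was all but lost at 7 days. It was at 65.9, 10.04, 9.44 and 89.6 eRPKM in controls, 114.3, 48.0, 2.81 and 8.84 at 3 days, and 0, 0.347 and 0 at 7 days. The male livers (controls 1 and 4, 3-day livers 1 and 2) held 48.0 to 114.3 eRPKM and the female livers of these groups 2.81 to 10.04, with no overlap. The 7-day livers were all female, so the sexes were compared apart. In the 3 female 7-day livers 4 reads were found among 16610384 (exact Poisson interval 1.09 to 10.2 reads), against 151 reads among 7905386 in the 2 female controls, a ratio of 79.3 (30.4 to 295, counting error only). The 2 female 3-day livers held 20 and 63 reads. In female livers alone the log2 fold change at 7 days was -4.10 (SE 0.46, adjusted p = 0.000419) and from 3 to 7 days -3.22 (SE 0.46, adjusted p = 0.00171). Over all livers it was -5.56 (SE 1.08, adjusted p = 0.00155), and it no longer passed with log2 depth as a covariate (-4.32, adjusted p = 0.0387), with limma-voom on recovered reads (-7.93, adjusted p = 0.0362) or against the 2 deepest controls (-5.47, adjusted p = 0.0123). At 3 days the value was -0.47 (SE 1.0, adjusted p = 0.887).

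The other members kept their direction at 7 days when female livers alone were compared. There Scd2 rose by 3.06, Elovl7 by 1.72 and Elovl1 by 1.199 on the log2 scale (adjusted p = 6.78e-05, 0.00382 and 0.00251). Fads2 fell by 2.24, Elovl5 by 1.61, Elovl2 by 1.27 and Fads1 by 1.25 (adjusted p = 0.00015, 0.00121, 0.00251 and 0.00199). Scd1 (-1.26, adjusted p = 0.0254) and Elovl6 (-0.54, adjusted p = 0.182) were not called in female livers. No male liver was among the 7-day livers, so no change at 7 days was measured in males. The fits over all livers set female 7-day livers against groups of both sexes, so time and sex are partly mixed there.

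The order of the members by level differed between controls and 7-day livers. In controls Scd1 (mean 449.5 eRPKM) was followed by Elovl2 (187.9), Elovl5 (173.6) and Fads1 (146.8), whose ranges overlapped, then by Fads2 (78.6), Elovl6 (51.5), Elovl3 (43.7), Elovl1 (26.1), Scd2 (4.23) and Elovl7 (0.445). The ranges of Fads1 and Fads2 did not overlap, nor did those of Elovl1 and Scd2 or of Scd2 and Elovl7, while Elovl6, Elovl3 and Elovl1 overlapped as neighbours. At 7 days Scd1 (146.9) still led. Elovl2 (71.1), Elovl1 (66.4), Fads1 (63.1) and Elovl5 (57.7) followed, and each overlapped its neighbour. Scd2 (42.4) and Elovl6 (40.7) overlapped in turn, ahead of Fads2 (18.2), Elovl7 (2.90) and Elovl3 (0.116). By these means Elovl1 was in place 8 in controls and 3 at 7 days, and Scd2 in places 9 and 6. The control means cover both sexes, while the 7-day livers were all female, so sex and time are mixed in this order. Elovl3 averaged 9.74 eRPKM in female and 77.7 in male controls, and Elovl1 29.0 and 23.3, so Elovl1 was already above Elovl3 in female controls. The 10 members together made up 844.7 to 1463 eRPKM in controls, 912.7 to 1052 after 3 days and 409.0 to 567.5 after 7 days.

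Other genes of the same pathway were read from a list of 40, of which 39 were in the table and 37 were tested. At 3 days 0 of 37 were called, where 0.0421% of all tested genes were. Limma-voom also called 0 of these, beside only 1 rise among all tested genes. Of all 14244 tested genes 1718 had an unadjusted limma p under 0.05 at 3 days, as did 5 of the 37. After 7 days 12 fell and 4 rose against control, where 5.77% and 18.0% of all tested genes did so. Against 3 days 8 fell and 3 rose, beside 5.31% and 14.0% of all tested genes. Their median log2 fold change against control at 7 days was -0.26. Among the remaining family genes 3 of 6 rose at 7 days and 0 fell. Fads3, the neighbour and paralog of Fads1 and Fads2, was at 41.5, 47.7, 36.9 and 26.1 eRPKM in controls, 13.8, 30.1, 32.5 and 18.4 at 3 days, and 115.6, 103.5 and 108.6 at 7 days. It rose (log2 fold change 1.54, SE 0.28, adjusted p = 0.000923) while its neighbours fell, and 0 of the 60-base stretches of Fads1 or Fads2 occur in another coding gene. The sphingolipid desaturases Degs1 (0.64, adjusted p = 0.00992) and Degs2 (1.30, adjusted p = 0.0017) were the other 2 that rose. Degs1 was just under the threshold, and it was not called against 3 days (adjusted p = 0.0261).

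The enzymes that work with every ELOVL protein, and the genes listed beside them, changed less uniformly at 7 days, when 18.0% of all tested genes rose and 5.77% fell. Of 6 tested partners of the elongation cycle, Hacd4 rose (1.67, SE 0.29) and Hacd3, the more abundant dehydratase in these livers at 114 eRPKM against 2.27 in controls, fell (-0.94). The condensation partner reductases were not called. Hsd17b12 had a log2 fold change of -0.48 (95% confidence interval -0.73 to -0.22, adjusted p = 0.00703), short of the limit of 0.5. Its 7-day livers were all below the controls. Tecr had a value of -0.19 (-0.66 to 0.27). Of 3 electron donors Cyb5b fell (-1.46, SE 0.17). Cyb5a (-0.86, adjusted p = 0.0443) and Cyb5r3 (-0.11, adjusted p = 0.655) were not called, although for Cyb5a all 7-day livers were below the controls. Among 6 genes listed around precursor supply 3 fell: Acacb, the mitochondrial acetyl-CoA carboxylase (-2.99, SE 0.45), Me1, a source of NADPH (-2.33, SE 0.21), and the lipogenic Thrsp (-1.47, SE 0.32). Not all 6 make precursors for elongation, so this count does not measure the supply. Fasn, fatty acid synthase (-0.39, 95% confidence interval -1.29 to 0.50), Acaca (0.52, -0.17 to 1.22) and Acly (-0.31, -0.77 to 0.15) were not called. Acsl1 and Acsl5 fell of 3 acyl-CoA ligases.

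**Figure D4:**
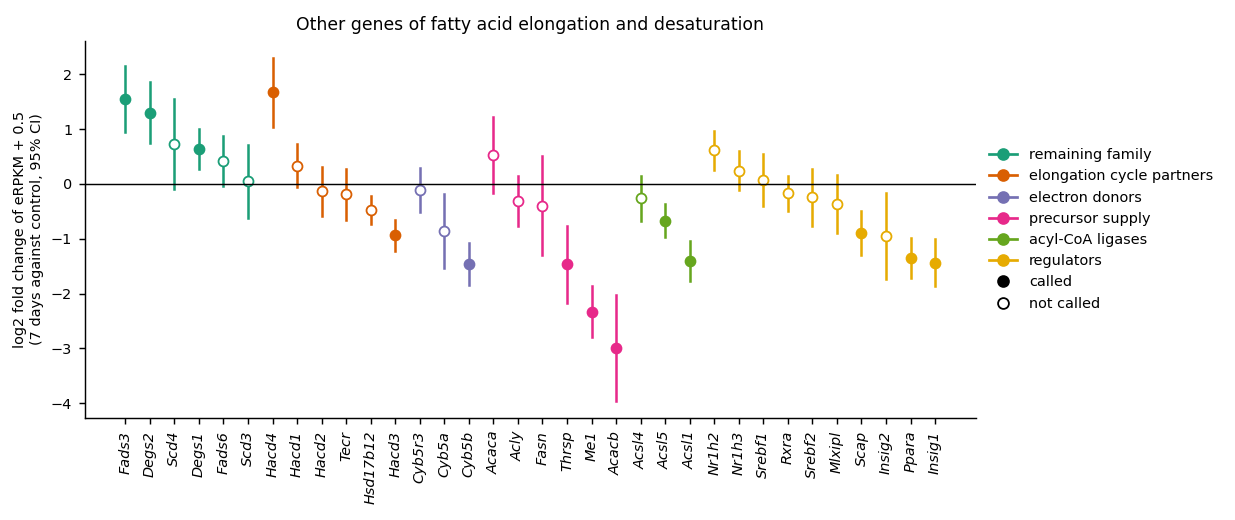
Log2 fold change at 7 days against control, with its 95% confidence interval, of 34 of the other tested genes of the pathway, coloured by role; filled circles passed the thresholds. The plotted genes that passed run from Acacb (-2.99) to Hacd4 (1.67), with 10 below and 4 above 0.

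Of 10 regulators of these genes 3 fell at 7 days and 0 rose, where 5.77% and 18.0% of all tested genes did so. Ppara, the nuclear receptor of fatty acid oxidation, fell by 1.35 (SE 0.17, adjusted p = 7.02e-05) on the log2 scale. Insig1, which holds SREBP precursors in the endoplasmic reticulum, fell by 1.44 (SE 0.20, adjusted p = 0.000141), and Scap, which escorts them out, by 0.89 (SE 0.18, adjusted p = 0.00219). Srebf1 itself stood at 84.1 to 112.4 eRPKM in controls, 66.1 to 134.6 after 3 days and 90.5 to 117.1 after 7 days, with a log2 fold change of 0.07 (95% confidence interval -0.41 to 0.54) at 7 days. The remaining 6 had log2 fold changes of -0.95 (Insig2), -0.36 (Mlxipl), -0.24 (Srebf2), -0.17 (Rxra), 0.24 (Nr1h3) and 0.61 (Nr1h2), none called. Nr1h2 was just over the threshold (adjusted p = 0.0101), with all 7-day livers above the controls.

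Markers of other cell types were read in the same 7-day livers, where 18.0% of all tested genes rose and 5.77% fell. Of 5 measured macrophage markers, 3 rose (Cd68, Csf1r and Cd5l), and their summed level was 195 to 393 eRPKM in controls, 251 to 447 after 3 days and 651 to 742 after 7 days. Of 6 hepatocyte markers 2 fell (Ttr and Asgr1), with sums of 1206 to 3276, 1452 to 1815 and 952.5 to 1086 eRPKM. All 6 had a log2 fold change below 0 (median -0.83). In all but Apoa1 the 7-day livers lay below every control. The control sums ran against depth, with 3276 in the shallowest control and 1206 in the deepest; the part of depth in this difference was not tested. Of 5 tested biliary markers 1 rose (Krt7), with sums of 37.7 to 49.1, 40.5 to 84.7 and 61.6 to 112 eRPKM. Of 6 endothelial markers 1 rose (Cdh5, log2 fold change 1.504). Pecam1 and Stab2 had values of 0.64 and 0.56, and Clec4g, Tek and Kdr of -0.77, -0.29 and -0.06, none called. Of 6 stellate markers 1 fell (Reln), and of 2 tested erythroid markers 1 fell (Hbb-b1). Among lymphocyte and adipocyte markers 0 of 6 and 0 of 2 tested were called or had an unadjusted limma p under 0.05. Such a p was found for 6 of 6 hepatocyte, 5 of 5 macrophage and 5 of 5 tested biliary markers. The same held for 4 of 6 endothelial, 2 of 6 stellate and 2 of 2 tested erythroid markers. Among all 14244 tested genes it was found for 6744. The sums of the adipocyte markers were 3.06 to 23.9 eRPKM in controls, 3.85 to 5.22 after 3 days and 6.89 to 8.60 after 7 days. Adipoq was at 0 to 3.84 eRPKM in controls and at 0 in the 3-day livers. The part of cell composition in the changes of the members was not tested.

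The genes whose log2 levels ran most like each called member over the 11 livers were found among 12569 genes, as a description in which group differences carry most of the likeness. Elovl2 and Elovl5 were close to each other (Pearson r = 0.980), and Fads1 was among the nearest to Fads2 (r = 0.956, after Cbs and Pln). Elovl5 was nearest to Nrn1 (r = 0.987), Elovl2 shared with it the bile salt pump gene Abcb11 (r = 0.970 and 0.979), and Fads1 was nearest to Uroc1 (r = 0.973), an enzyme of histidine breakdown. Scd1 was nearest to Orm1 (r = 0.984), a secreted plasma protein of hepatocytes. Scd2 was nearest to Inpp5d (r = 0.993), known from blood cells, and to Plekha2 and Iqgap1 (r = 0.992 each). Elovl7 was nearest to Coro2a (r = 0.995) and Rassf2 (r = 0.995), Elovl1 to Mdp1 (r = 0.987) and Elovl3 to Nox4 (r = 0.985) and the urinary protein gene Mup7 (r = 0.982).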

How the data were processed

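Bulk RNA-seq libraries of 11 mouse livers were analysed: 4 controls, 4 after 3 days and 3 after 7 days of YAP induction. Groups and replicate numbers were taken from the labels, which do not say that each library is a separate mouse, so p-values measure the spread between these libraries. Libraries were made from total RNA with TruSeq RNA Sample Prep kits v2. According to the study's methods low-quality bases were masked and read pairs were aligned to mm9 with tophat 2.0.8 without strand; the submitters' processing notes also name featureCounts 1.4.5-p1, SAMtools and DESeq2. The treatment of duplicate reads is not given in the sources used here. The deposited values are eRPKM, a kind of RPKM that the authors computed as exonic reads per length and library size. The table also holds the authors' own comparison of 7 days with control (mean, log2 fold change and adjusted p), which was not used.

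The reads behind each eRPKM were recovered from its smallest step per gene, and each of the 177553 nonzero values (100%) lay no further than 0.1 from a whole number of reads. These reads served for depth, counting intervals (95%, counting error only) and limma-voom as an alternative. The main test was limma 3.58.1 in R 4.3.3 (lmFit, then eBayes with trend) for the 14244 genes that reached 0.5 eRPKM in 3 or more libraries, on log2(eRPKM + 0.5), all 3 groups in one fit; the offset understates changes of low genes. Adjusted p-values are Benjamini-Hochberg over all tested genes. The fit was also tested on simulated data. Sex was read from Xist and Ddx3y. GENCODE M1 (mm9) gave positions and overlapping exons of the members. Other steps ran in Python 3.11.15 with scipy 1.17.1, pandas 2.3.3, numpy 2.4.6 and matplotlib 3.10.9.

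The members, the gene lists and the alternatives were chosen with earlier results of these data known. All members are named. Other pathway genes are counted, and named where they were the 6 called genes of largest change at 7 days (Acacb, Me1, Hacd4, Fads3, Thrsp and Cyb5b) or regulators; the others named were chosen after their values were seen. A group of 3 listed genes is counted but not reported here by name. Alternatives were pseudocounts of 1 and 0.1, other filters, size factors, quantile normalization, fits of the 2 compared groups, without trend or robust, covariates (suffix MF in the labels, log2 Xist, log2 depth), a replicate block, female livers, limma-voom, a looser call (adjusted p under 0.05, no fold limit), each liver left out and, added after the data were seen, the 2 deepest controls.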

Additional observations from a re-analysis of the deposited data

Results flagged for a closer look

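Of 22 sets of 4 livers examined (the 10 members and the reads on genes, in controls and at 3 days), 3 had a liver standing apart by Dixon's ratio, the gap to the nearest liver over the range of the set, against its 95% limit, which chance passes in about 1 set in 20. Elovl1 was highest in control liver 2 (34.0 eRPKM, ratio 0.846) and Elovl2 was lowest in the same liver (144.4 eRPKM, ratio 0.836), which was female and the deepest control. Without it the log2 fold change at 7 days was 1.47 for Elovl1 and -1.51 for Elovl2, both called. Reads on genes were lowest in 3-day liver 1 (2660233 reads, ratio 0.946).

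The change from control differed between 3 and 7 days for 8 members, by the direct test of 7 against 3 days, in which the shared controls cancel. In that test 14.0% of all tested genes rose and 5.31% fell. The difference on the log2 scale was 3.04 for Scd2, 1.84 for Elovl7, -0.999 for Elovl2, -0.986 for Fads1, -1.21 for Elovl5, -1.24 for Fads2, -1.27 for Scd1 and -5.09 for Elovl3. The call of Scd1 was lost in 18 of 27 alternatives (adjusted p up to 0.0567), that of Elovl3 in 7 (up to 0.0451), and those of Elovl2 and Fads1 in 1 each. Every 7-day liver lay on one side of every 3-day liver in each of these 8 members, as it did in 45.1% of all tested genes. The 3-day mice also had fewer days of doxycycline, which cannot be told apart from the time of YAP induction in that comparison, and included males, which the comparison of female livers leaves out.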

How the results depend on the processing

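Over the 28 alternatives 3 members rose and 4 to 6 fell at 7 days against control, and 0 were called at 3 days. At 7 days against control all 10 members kept the sign of their change in all alternatives. Calls of Elovl3 and Scd1 were lost as given above, and the adjusted p of Scd1 ran up to 0.0254 and that of Elovl3 up to 0.0387. Between 3 and 7 days (27 alternatives) 2 or 3 members rose and 4 to 6 fell: Scd1 lost its call in 18 (adjusted p up to 0.0567) and Elovl3 in 7 (up to 0.0451), Elovl2 in female livers (0.0112) and Fads1 under quantile normalization (0.0158), while Elovl1 was called under quantile normalization (0.93) and at an adjusted p under 0.05, and Elovl6 without 3-day liver 1. At 3 days, where no member was called, some signs turned. Elovl7 was -0.063 with log2 depth, -0.10 with limma-voom, -0.15 against the 2 deepest controls and -0.087 to 0.16 with a liver left out. Scd1 was 0.27 and Scd2 -0.056 against the 2 deepest controls, and with a liver left out Scd1 ran from -0.53 to 0.0015, Scd2 from -0.025 to 0.24 and Elovl3 from -1.30 to 0.41. The replicate numbers did not pair the livers (r of -0.22 to 0.27 between same-numbered livers, over 0.1 in 2 of 10 pairs). With the replicate block Scd1 lost its call between 3 and 7 days (-1.17, adjusted p = 0.0133), 3 rather than 6 of all genes rose at 3 days, and no other member call changed. Over all genes the calls at 3 days ran from 0 to 53 rises, the 53 without 3-day liver 1, against 6. At 7 days against control rises ran from 1099 (log2 depth) to 3969 (adjusted p under 0.05) against 2561 and falls from 469 (without 7-day liver 3) to 1821 (quantile normalization) against 822; against 3 days rises ran from 1023 (female livers) to 3621 (adjusted p under 0.05) against 1997 and falls from 364 (without 7-day liver 3) to 1464 (adjusted p under 0.05) against 756. Of other pathway genes 1 (log2 depth) to 5 rose, against 4, and 7 (without 7-day liver 2) to 14 fell at 7 days, against 12. The causes were not tested. Few reads limit Elovl7 outside 7 days and Elovl3 at 7 days.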

Other observations

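Among 7 genes with known sex bias in mouse liver that were in the table, Sult3a1, a sulfotransferase of female liver, showed a loss like that of Elovl3, although its bias is the opposite. It stood at 127 to 151 eRPKM in female controls, 104 to 224 in female 3-day livers and 0.149 to 0.5001 in the 3 female 7-day livers, while male controls held 0.454 to 0.708. The fit over all livers did not call it (log2 fold change -3.82, adjusted p = 0.179), and male livers were at 0 to 3.99 eRPKM. In female livers alone it was -7.33 (SE 0.33, adjusted p = 1.07e-05). Cyp7b1, the male-biased oxysterol hydroxylase, was at 19.2 to 35.4 eRPKM in female controls and 3.61 to 6.58 in the 7-day livers (-2.22 in female livers, adjusted p = 0.00132), and the female-biased Cyp2b9 fell from 175 to 226 eRPKM to 83.8 to 101 (-1.08, adjusted p = 0.00277). Cux2 and Bcl6, regulators of sex-biased genes, were not called in female livers (-0.51 and -0.58, adjusted p = 0.44 and 0.2005), nor were the male-biased Mup20 and Cyp4a12a, at 0.75 (adjusted p = 0.169) and 0.9998 (adjusted p = 0.195). These genes were chosen for description after their values were seen.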
